A study of Mus musculus with 4 samples.

Results

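The F-box protein genes were examined in maps of N6-methyladenosine (m6A), the methylated adenosine of messenger RNA, from mouse retinal organoids. Members were the genes listed under a symbol of the form Fbxl, Fbxo or Fbxw followed by a number. This gave 59 genes of the 20001 gene names listed in the 4 libraries together, 17 Fbxl, 34 Fbxo and 8 Fbxw. All 59 were symbols of the RefSeq gene table, which holds 78 protein-coding genes of this name form, and 16 of the 19 without a listed site were Fbxw genes. Polyadenylated RNA of day 6 organoids was profiled with GLORI, in which glyoxal and nitrite turn unmethylated adenosine into inosine, read as G, while m6A is still read as A. The line behind all 4 libraries was Rx:GFP, which reports on the retinal gene Rx, with the FKBP12F36V-HA degron at the C-terminus of endogenous Mettl3, so the untreated libraries carry the tagged protein as well. METTL3 carries out the methylation in the nuclear m6A writer complex, and dTAG13 directs FKBP12F36V-tagged proteins to the proteasome. The untreated group (dTAG13 for 0 h) and the dTAG13 group (125 nM for 8 h) had 2 libraries each. In the labels' genotype text the Mettl gene differs from sample to sample, whereas the series text names METTL3 throughout. The degron was taken to be on METTL3 in all 4, which was not tested. No label says that the libraries of a group came from separate cultures, so the spread between samples behind the p-values may be technical.

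F-box proteins are the substrate receptors of SCF ubiquitin ligases. The F-box binds SKP1, which joins it to the scaffold CUL1 and the RING protein RBX1, and the rest of the protein picks the target to be ubiquitinated. Fbxl proteins carry leucine-rich repeats, Fbxw proteins carry WD40 repeats, and Fbxo proteins carry other domains or none that is recognised. In neural and retinal development the family takes part in the turnover of cell cycle regulators and of Notch and Wnt pathway proteins. In mRNA, m6A is often found near stop codons and in long internal exons, and it is bound by reader proteins that promote decay.

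The level of a site was its A reads divided by its A plus G reads. Each table lists called positions, with a level of at least 10%, at least 15 reads and at least 5 of them A, so a position missing from a table has no value there. It may have been less methylated, less covered or not called. Site positions are given as the tables list them. The build named in the submitters' processing notes, mm10, could not be matched to them, since 5 of the 59 genes had all their listed sites inside their GRCm38 interval and the tables hold a contig of a later assembly. Exon, intron and untranslated region were therefore not assigned, and the sequence around a site is not shown. The libraries listed 335607 and 350462 sites in untreated organoids and 220034 and 263069 after dTAG13. The 5 eye field markers (Rax, Pax6, Six3, Six6 and Lhx2) were listed in all 4 libraries, as were 4 of 4 pluripotency genes and 2 of 2 telencephalic genes. Summed gene coverage was 1917 to 2293 in untreated and 1409 to 1985 in dTAG13 libraries for the eye field list, and 469 to 486 and 405 to 536 for the pluripotency list. Of the other marker lists, 1 of 3 neuronal, 2 of 3 pigment epithelium, 1 of 3 mesoderm and endoderm and 0 of 2 neural crest genes were listed in all 4 libraries.

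F-box genes had fewer listed sites after dTAG13. Untreated libraries listed 1015 and 1048 F-box sites, dTAG13 libraries 741 and 865, and the groups did not overlap. The means were 1032 ± 23.3 and 803 ± 87.7 (SD, n = 2), a ratio of 0.778, against 0.714 for the sites of all genes. The exact permutation test gave p = 0.333 (two-sided), the smallest that 2 against 2 libraries allows. As a share of all sites assigned to genes, F-box sites made up 0.389% and 0.385% in untreated and 0.415% and 0.428% in dTAG13 libraries (exact permutation p = 0.333, two-sided). The number of F-box genes with a listed site was 54 and 56 in untreated and 52 and 53 in dTAG13 libraries, and 49 were listed in all 4. Median reads and median gene coverage, taken over listed sites and genes, did not separate the groups. The median listed F-box site had 85 and 89 reads in untreated and 77 and 108 in dTAG13 libraries. The median gene coverage was 83.3 and 81.2 against 73.3 and 100.9. Both medians leave out what was not listed, so they do not measure library depth. Uncentred gene coverage had a median log2 change of -0.15 over all genes (8114 of 12520 negative). In the F-box genes it was -0.09 (27 of 49 negative). Whether depth contributed to the fall in sites was not tested.

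The fall was seen in each subfamily. The leucine-rich repeat genes had 299 and 296 untreated sites and 229 and 247 after dTAG13, a ratio of 0.800. The Fbxo genes had 543 and 563 against 370 and 488, a ratio of 0.776. The WD40 repeat genes had 173 and 189 against 142 and 130, a ratio of 0.751. In none of the 3 did the groups overlap (exact permutation p = 0.333 each, two-sided, n = 2), and the ratios were not tested against one another.

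Split by level, the mean number of F-box sites at 10 to 40% was 586 ± 17.7 in untreated and 440.5 ± 38.9 in dTAG13 libraries (SD, n = 2), a ratio of 0.752, against 0.683 for all genes. At 40 to 90% it was 239 ± 19.8 and 198.5 ± 30.4, a ratio of 0.831, against 0.714. At 90% or more it was 207 ± 14.1 and 164 ± 18.4, a ratio of 0.792, against 0.849. Each of the 3 classes was thus lower after dTAG13 in both libraries (exact permutation p = 0.333 each, two-sided). The share of F-box sites at 90% or more was 20.1% ± 1.83 and 20.4% ± 0.0598, and 15.2% ± 0.894 and 18.0% ± 0.578 for all genes. The share at exactly 100% was 15.5% and 11.9% in untreated and 14.98% and 12.8% in dTAG13 libraries. The median level of a listed F-box site was 33.3% in both untreated libraries and 34.1% and 35.4% after dTAG13. Levels of listed sites were thus not lower in the dTAG13 libraries, in tables from which levels under 10% are absent.

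**Figure D1:**
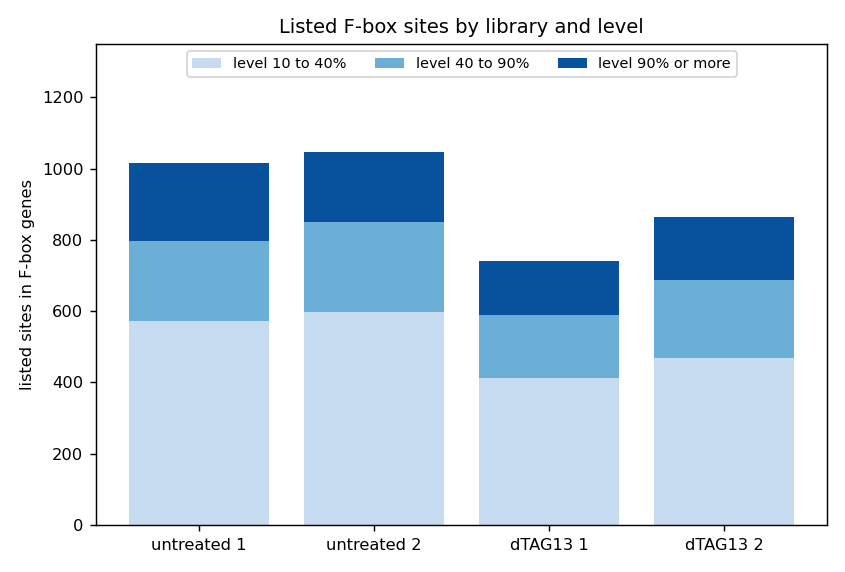
Number of listed sites in F-box genes in each of the 4 libraries (y axis, count; bars start at 0), stacked by methylation level. The untreated libraries hold 1015 and 1048 sites and the dTAG13 libraries 741 and 865, with each level class smaller after dTAG13.

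Sites were spread unevenly over the family, and a few genes held many. Fbxo30, a ubiquitin ligase receptor known from muscle wasting, had the most, with 62 and 63 sites in untreated and 69 and 69 in dTAG13 libraries. Fbxw11 (beta-TrCP2, a receptor for phosphorylated beta-catenin and I-kappa-B) had 48 and 55 untreated sites and 38 and 40 after dTAG13. Fbxl5, the iron-sensing receptor that targets IRP2, had 56 and 38 against 28 and 55. Fbxo30 was therefore the member of these 3 without a lower number after dTAG13, and the Fbxl5 libraries overlapped. Fbxl19, a CpG-island binding protein with a CXXC zinc finger, had 43 and 52 sites against 50 and 29. Fbxo38 had 43 and 47 against 33 and 38. Fbxo21 had 41 and 36 against 28 and 37, and Fbxw8, the receptor that works with CUL7, had 41 and 40 against 35 and 22. The groups did not overlap for Fbxo38 and Fbxw8, and did for Fbxl19 and Fbxo21. The sites of all genes had a ratio of 0.714, and the share of genes without overlap in site number was not computed. Fbxw2 had 38 and 34 sites against 27 and 32. Fbxo11, a receptor for BCL6, had 38 and 37 against 25 and 25. Fbxo3 had 48 and 41 against 15 and 19, the widest gap of these 10 genes. At the other end, 10 genes were missing from at least 1 table, among them the muscle genes Fbxo32 (atrogin-1) and Fbxo40 and the gene Fbxl21, with 7, 2 and 1 listed sites in all.

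A gene with more reads offers more positions that can be called, so site numbers were set against the deposited gene coverage, a signal per gene and library. Across the 49 genes listed in all 4 libraries, the Spearman correlation of site number with coverage was 0.70, 0.69, 0.80 and 0.69 in untreated 1, untreated 2, dTAG13 1 and dTAG13 2. Across all 12449 genes with a coverage of at least 20 in every library it was 0.40, 0.37, 0.50 and 0.46. These are descriptions across genes, which share the depth of their library. The number of sites followed coverage in every library, with wide scatter at a given coverage. Site density, the number of listed sites per 100 units of coverage, had F-box medians of 15.7 and 17.1 in untreated and 14.7 and 11.8 in dTAG13 libraries. The medians over all genes were 13.7, 14.2, 10.9 and 9.46. Density was not free of coverage. Its Spearman correlation with coverage was 0.21, 0.15, 0.48 and 0.25 across the F-box genes. Across all genes it was -0.26, -0.29, -0.09 and -0.17, in the same order of libraries. Against genes of like coverage (20 bins per library), 31 of 54, 31 of 56, 30 of 52 and 33 of 53 F-box genes lay above the median of their bin, whereas 46.1%, 46.7%, 46.0% and 46.9% of all genes did. Of the 49 genes, 19 lay above it in every library (33.4% of all genes did) and 4 lay below it in every library. The share of all genes below it in every library was not computed.

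**Figure D2:**
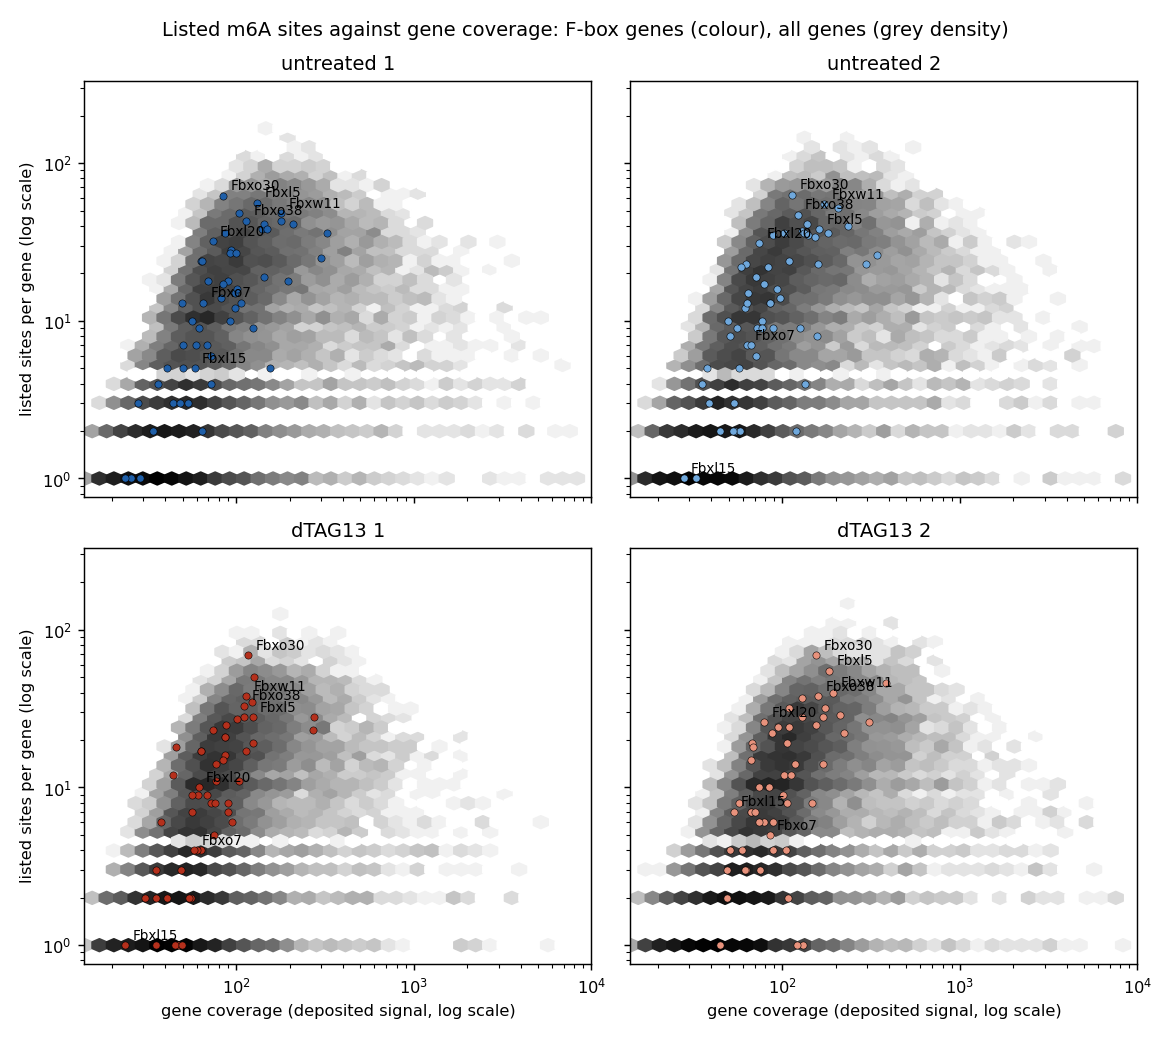
Listed m6A sites per gene (y axis, log scale) against deposited gene coverage (x axis, signal, log scale) in the 4 libraries; coloured points are F-box genes and grey shading is the density of all genes. Fbxo30 sits at the upper edge at a moderate coverage in every library, with 62 to 69 sites.

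Fbxo30 had the highest density as well, with 73.2 and 55.3 sites per 100 units of coverage in untreated and 59.1 and 44.4 in dTAG13 libraries. Its sites numbered 4.1, 3.2, 4.6 and 4.3 times the median of genes of like coverage. Fbxl20 (Scrapper, a receptor studied at synapses) followed with 43.2 and 41.6 against 16.2 and 32.8. The Fbxl20 values after dTAG13 were both lower but far apart, while those of Fbxo30 overlapped with the untreated ones. Fbxo38 had 37.7 and 38.4 against 29.8 and 23.8. Fbxl5 had 42.5 and 23.4 against 22.5 and 29.9. The groups were apart for Fbxo38 and overlapped for Fbxl5. The lowest densities were those of Fbxl22, a cardiac sarcomere gene, at 3.2 and 3.0 against 2.2 and 0.76, and of Fbxo17, Fbxo36, Fbxo4 and Fbxl15. These 5 genes had 1 to 7 sites in each library, so that 1 site more or fewer changes their density considerably.

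**Figure D3:**
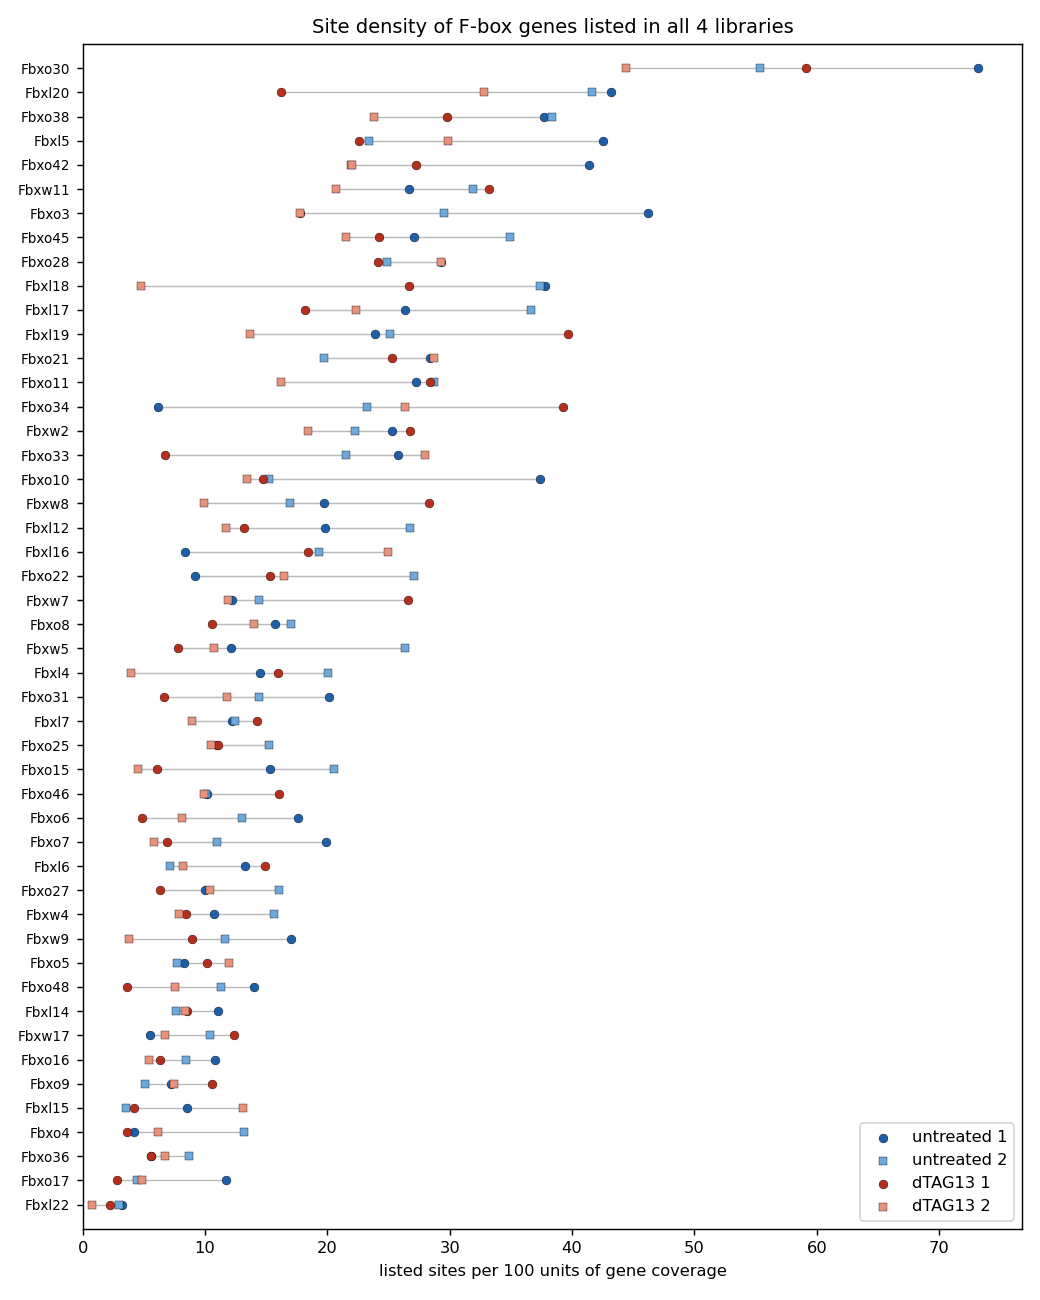
Listed sites per 100 units of gene coverage (x axis) for the F-box genes listed in all 4 libraries, except 1 that is not shown, ordered by their mean; points are single libraries and grey lines join the lowest and highest. Fbxo30 lies highest in every library (44.4 to 73.2), and for many genes the 4 libraries are spread widely.

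The placement of listed positions in each gene was described by its densest stretch of 1000 nt. In the 42 F-box genes with at least 20 listed positions, the densest stretch of 1000 nt held between 20.7% and 63.2% of a gene's positions, with a median of 39.1%. Fbxl14, a receptor for the transcription factor Snail, had the highest share, with 60 of 95 inside chr6:119458449-119459448. Its listed sites spanned only 2947 nt, of which a stretch of 1000 nt is a large part. Fbxw11 had 59 of 163 inside chr11:32695632-32696631, although its listed sites spanned 93884 nt of the genome. Fbxo30 had 60 of 237 inside chr10:11166187-11167186, and 13 of its 23 positions that were listed in more than 1 library lay there. Over the 42 genes, these windows held 36.1% of 3257 positions and 44.6% of the 251 positions listed in more than 1 library. Each window was picked as the densest from these same positions, which by itself raises its share. The coordinates are genomic, with introns not set apart, so whether sites were uneven along the transcripts was not tested.

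The change in listed sites relative to coverage was tested with edgeR's quasi-likelihood test, with the log of gene coverage as offset and Benjamini-Hochberg adjustment over 11819 genes. Its p-values and SE rest on a spread pooled over genes, so the distance between the libraries of a single gene hardly enters them. No F-box gene passed an adjusted p of 0.05 among the 49 tested, where the background over all genes was 1.09% (129 genes, of which 104, or 0.88% of those tested, were lower and 25 higher). At an unadjusted p under 0.05 there were 3 F-box genes, all lower, against a background of 17.6% (15% lower), so the family had a smaller share than all genes. DESeq2 called 0 F-box genes as well, with 1 at an unadjusted p under 0.05, against 5.7% of all genes. The log2 change was negative for 37 of 49 (75.5%, against 71.3% of all genes), with a median of -0.39 against -0.38. With an offset from the total number of listed sites, which shifts the median of all genes to 0.00, 19 of 49 were negative and the F-box median was 0.14. Under that scaling the calls over all genes were 15 lower and 39 higher. Both dTAG13 densities lay below both untreated ones in 19 of the 49 genes, where the background was 38.9%, and above them in 3, where it was 10.3%. The difference between the family and all genes was not tested.

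Fbxo3, with unadjusted p = 0.00661, was nearest to the threshold. Its density was 46.2 and 29.5 in untreated and 17.8 and 17.8 in dTAG13 libraries, a log2 change of -1.07 ± 0.40 (SE) with an adjusted p of 0.129 in edgeR's quasi-likelihood test. Fbxo15, a gene known as an embryonic stem cell marker, had 15 and 13 sites against 3 and 4 and densities of 15.3 and 20.5 against 6.1 and 4.5. Its log2 change was -1.78 ± 0.72 (edgeR adjusted p = 0.170). Fbxl18 had 24 and 22 sites against 17 and 3, a log2 change of -1.25 ± 0.52 (edgeR adjusted p = 0.177). The dTAG13 libraries of Fbxl18 thus disagreed, and the change was -2.98 without dTAG13 library 1 (adjusted p = 0.0372) and -0.49 without dTAG13 library 2 (adjusted p = 0.718). Among the other large negative values, Fbxl22 had -1.42, Fbxo7, a parkinsonism gene, had -1.30 and Fbxw9 had -1.21, with edgeR adjusted p-values of 0.495, 0.331 and 0.321. These values moved with single libraries: with dTAG13 library 1 or 2 left out, Fbxl22 had -2.02 and -0.49 and Fbxw9 had -1.92 and -0.69, and Fbxo7 had -0.81 without untreated library 1. In the other direction, Fbxo34 had the largest value, 1.05 ± 0.56 (edgeR adjusted p = 0.309), from 3 and 15 sites in untreated and 18 and 18 in dTAG13 libraries. Its untreated libraries lay far apart, and the value was 0.47 without untreated library 1 and 2.38 without untreated library 2. Fbxl16 had 0.68, Fbxo9 0.57, Fbxl15 0.56 and Fbxw7, the receptor for cyclin E, MYC and Notch, 0.49, with edgeR adjusted p-values from 0.525 to 0.773. With 1 library left out, Fbxl16 ranged from 0.17 (without untreated library 1) to 1.38 (without untreated library 2) and Fbxo9 from 0.31 (without dTAG13 library 1) to 0.83 (without untreated library 1). The Fbxw7 and Fbxl15 values changed sign when 1 dTAG13 library was left out, to -0.17 without library 1 and -0.69 without library 2. Fbxo5 (EMI1, an inhibitor of the anaphase-promoting complex) had 25 and 23 sites against 28 and 46, a log2 change of 0.47 (edgeR adjusted p = 0.516). Relative to the total number of listed sites its change was 1.12, with an adjusted p of 0.0470.

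Gene coverage of the F-box genes was compared on the log2 scale after centring each library on its median gene. Limma called none of the 49, where the background was 0.0% of 12520 genes. At an unadjusted p under 0.05 there were 4 F-box genes against a background of 16.3%, and the smallest adjusted p was 0.274. The 4 were Fbxo16 at 0.63, Fbxl7 at 0.78 and Fbxo30 at 0.54, all higher, and Fbxl22 at -0.83. The coverage of Fbxo30 was 84.7 and 114 in untreated and 117 and 155 in dTAG13 libraries before centring. The median change was -0.01 for the F-box genes and -0.07 for all genes, and the groups did not overlap in 7 genes downwards (background 29.2%) and 13 upwards (background 17.0%). In bulk organoids, fewer cells of a type and less RNA per cell cannot be told apart. The coverage change was -0.26 ± 0.23 for Fbxo3 and -0.17 ± 0.33 (SE) for Fbxo15 (limma adjusted p = 0.658 and 0.853).

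The deposited tables also give a conversion rate per gene, and the unconverted share, 100% minus that rate, includes adenosines that are not listed as sites. Its median over F-box genes was 4.21% and 3.76% in untreated and 2.98% and 3.24% in dTAG13 libraries. The log2 odds of the share fell by a median of 0.39 in the F-box genes, negative in 40 of 49 (81.6%), and by 0.30 in all genes, negative in 76.7%. Limma called no F-box gene, where the background was 0.0%, and found 6 at an unadjusted p under 0.05, all lower, against a background of 12.3%. The smallest adjusted p was 0.369, shared by all 6. They were Fbxo48, Fbxo15, Fbxw7, Fbxo4, Fbxo34 and Fbxo17. Fbxw7 had an unconverted share of 5.01% and 6.26% in untreated and 2.61% and 2.48% in dTAG13 libraries. Fbxo15 had 3.44% and 3.998% against 1.17% and 1.73%, and Fbxo34 had 8.35% and 8.94% against 3.38% and 4.89%. The groups were apart in these 3 genes, and Fbxo34 combined a lower unconverted share with more listed sites. Such separation was common. Both dTAG13 shares lay below both untreated ones in 20 of the 49 genes (40.8%), where the background was 40.9%. They lay above them in 2, where it was 6.05%. Relative to the median gene of each library, 27 of 49 F-box genes were negative, with a median of -0.06. On that scale 7 F-box genes had an unadjusted p under 0.05 (background 7.5%), 6 of them lower (background 4.13%), and limma called none.

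Most F-box positions were listed in a single library. Of 3387 positions, 3132 (92.5%) were listed in 1, 230 in 2, 23 in 3 and 2 in all 4 libraries, and for all genes the share in 1 library was 91.4%. The untreated libraries shared 99 positions, an untreated and a dTAG13 library shared 43 to 45, and the dTAG13 libraries shared 35. Untreated libraries therefore had the most F-box positions in common. Positions listed once had fewer reads than those listed again, with medians of 80 and 117 in untreated 1, 82 and 149.5 in untreated 2, 75 and 100.5 in dTAG13 1 and 106 and 126 in dTAG13 2. They were also more often at 90% or more: in untreated 1, 22.3% of single and 16.5% of recurrent positions were, and in dTAG13 2, 21.7% and 11.4%. The 99 positions of both untreated libraries lay in 32 genes, with 8 in Fbxo30, 7 each in Fbxl19 and Fbxo5 and 6 each in Fbxl14, Fbxl5 and Fbxw2. The 35 positions of both dTAG13 libraries lay in 16 genes, with 7 in Fbxl5, 6 in Fbxo5 and 5 in Fbxo30. Even at a shared position the level could differ, by a median of 13.0 points between the untreated and 15.9 points between the dTAG13 libraries.

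Recovery was measured over sites with at least 50 reads, as the share listed again at the same position in another library. Of 736 such F-box sites in untreated 1, 12.0% (95% Wilson interval 9.81 to 14.5) were listed in untreated 2, 5.30% (3.90 to 7.16) in dTAG13 1 and 5.30% (3.90 to 7.16) in dTAG13 2. Of 757 in untreated 2, 11.9% (9.77 to 14.4) were listed in untreated 1, 5.15% (3.79 to 6.97) in dTAG13 1 and 5.02% (3.68 to 6.81) in dTAG13 2. The intervals of the untreated and dTAG13 shares did not overlap. These intervals cover counting error only, and reads need not be independent molecules. The mean recovery in a dTAG13 library was 0.436 of that in the other untreated library, and over all genes this ratio was 0.558. By level in the untreated library, the ratio was 0.470 for F-box sites at 10 to 40%, 0.353 at 40 to 90% and 0.391 at 90% or more, against 0.659, 0.306 and 0.273 for all genes. The difference between the family and all genes was not tested. With a listed site within 50 nt counted as recovered, 57.3% and 56.0% of the untreated sites were found in the other untreated library and 45.2% to 52.4% in a dTAG13 library, and the ratio rose to 0.869. How many sites would have a neighbour within 50 nt from site density alone was not tested. The dTAG13 libraries also recovered few of each other's sites, 5.34% (3.72 to 7.61) of 524 in dTAG13 1 and 4.05% (2.80 to 5.83) of 666 in dTAG13 2. In the untreated libraries more of them were listed. The shares were 6.30% and 6.87% for dTAG13 1 sites and 5.11% and 5.11% for dTAG13 2 sites. Recovery was not adjusted for the number of sites in the receiving library, which was larger in the untreated libraries.

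**Figure D4:**
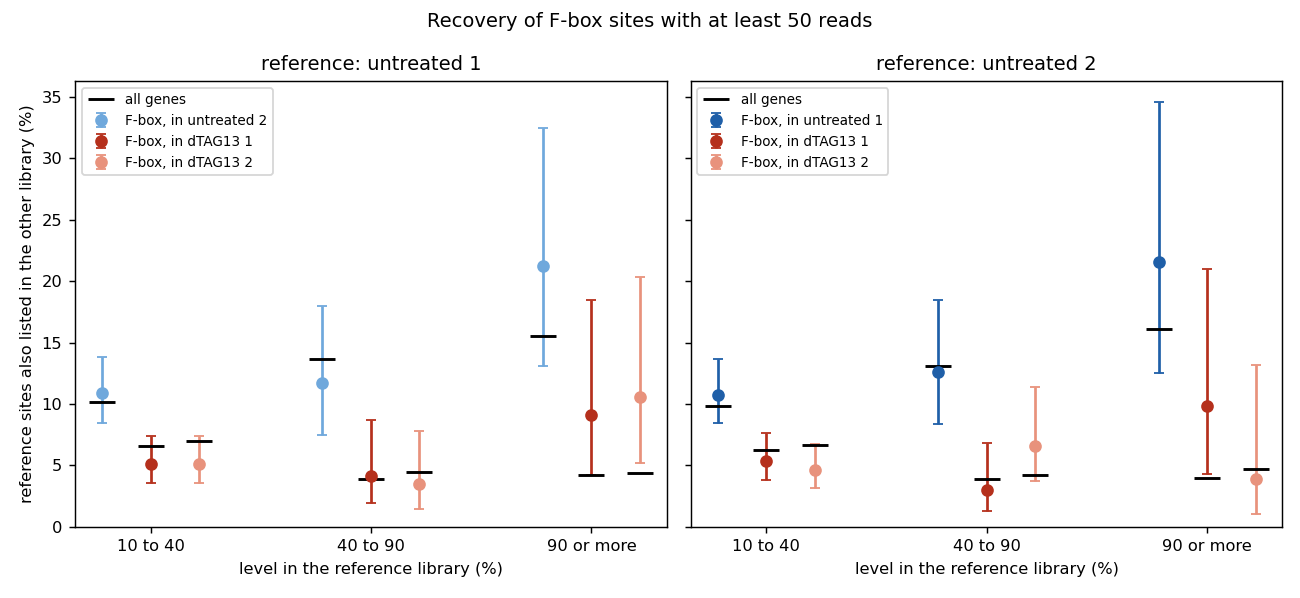
Share of F-box sites of an untreated library with at least 50 reads that was listed at the same position in each other library (y axis, %), by level in the reference library (x axis); points are F-box shares with 95% Wilson intervals and black bars the shares over all genes. At 10 to 40% the other untreated library recovers 10.9% and 10.8% of F-box sites, above both dTAG13 libraries at 4.64% to 5.38%.

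Of the 99 F-box positions of both untreated libraries, 77 were in neither dTAG13 library, 20 in 1 and 2 in both, so 22.2% had a level after dTAG13, against 20.0% over all genes. The positions with the highest levels are described first. At a mean untreated level of 90% or more there were 10 positions, 5 of them also listed after dTAG13, and in all 5 every dTAG13 level lay below both untreated levels, where the background was 78.0% of 391 positions. The median change of the 5 was -59.0 points. At 40 to 90%, 5 of 7 compared positions had lower levels (background 63.8%), and at 10 to 40%, 1 of 10 did (background 25.8%) while 7 were higher (background 35.3%). These classes were set by the untreated levels, and a level under 10% is not listed. The mirrored class, positions of both dTAG13 libraries at a mean dTAG13 level of 90% or more, held 0 F-box positions. Over all genes that class held 53 positions with an untreated value, with lower untreated levels at 49.1%.

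Fbxo30 had a site listed in all 4 libraries at chr10:11165317 on the plus strand. It was read as A in 178 of 184 reads (96.7%) and 221 of 223 reads (99.1%) in untreated libraries, and in 159 of 299 (53.2%) and 18 of 73 (24.7%) after dTAG13. The groups lay far apart, at means of 97.9% ± 1.67 and 38.9% ± 20.2 (SD, n = 2), a change of -59.0 points. A quasi-binomial model fitted over 2321 sites with at least 20 reads in each library, with moderated dispersion, gave it an adjusted p of 0.0801; the background was 2.28% (53 sites, 51 lower), and at an unadjusted p under 0.05, where Fbxo30 lay, 9.35% (5.95% lower). The same model per gene, fitted over 1016 genes, called Fbxo30 on this single site with an adjusted p of 0.0452 (background 4.53%, 46 genes, all lower; 10.2% lower at an unadjusted p under 0.05). That call was lost with limma on log2 odds (adjusted p = 0.0545) and when any 1 of the 4 libraries was left out (adjusted p from 0.0868 to 0.302), with changes of -44.7 to -73.3 points. The one other F-box site in all 4 libraries was in Fbxw2, a receptor for the placental factor GCM1, at chr2:34712995 on the minus strand. Its levels were 63.1% and 39.1% in untreated and 49.7% and 39.0% in dTAG13 libraries. These overlapped, with a change of -6.74 points (quasi-binomial adjusted p = 0.812) that became 5.24 without untreated library 1.

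A further 20 positions were listed in both untreated libraries and 1 dTAG13 library. They were tested 2 libraries against 1 with the same model over 4260 sites for dTAG13 1 and 4636 for dTAG13 2, the lone library being assumed to vary like the others. No F-box site was called among 11 and 13 tested, the 2 sites of all 4 libraries included, where the background was 0.0% in both. At an unadjusted p under 0.05 there were 6 (5 lower) for dTAG13 1, against a background of 11.2% (7.07% lower), and 2, both lower, for dTAG13 2, against 12.9% (7.94% lower). Leading them was a site of Fbxo28 at chr1:182144051 (minus strand), read as A in 402 of 402 and 450 of 450 untreated reads and in 98 of 518 (18.9%) in dTAG13 1, a change of -81.1 points (quasi-binomial adjusted p = 0.140). Fbxo22, a receptor for the demethylase KDM4A and for BACH1, had a site at chr9:55130844 (plus strand) at 97.2% and 97.3% in untreated libraries and 16.9% in dTAG13 1, a change of -80.3 points (quasi-binomial adjusted p = 0.140). Both sites were fully or almost fully methylated in untreated organoids and under 20% in the one dTAG13 library that listed them.

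Fbxl5 had a site at chr5:43916018 (minus strand) at 87.1% and 84.8% in untreated libraries and 14.1% in dTAG13 2, a change of -71.8 points (quasi-binomial adjusted p = 0.151). A second site of Fbxo30, at chr10:11166920 (plus strand), had 97 of 97 and 60 of 60 A reads in untreated libraries and 138 of 232 (59.5%) in dTAG13 1 (quasi-binomial adjusted p = 0.169). Fbxl14 had a site at chr6:119458466 with 31.4% and 39.3% against 15.4% in dTAG13 1 (adjusted p = 0.399). All of these were lower in the dTAG13 library. Lower levels were also found in Fbxw11 (chr11:32694697), at 96.2% and 94.2% against 87.1%, and in Fbxw2 (chr2:34712716), at 79.3% and 87.4% against 56.3%. Fbxo5 had a site at chr10:5749662 with 98.3% and 76.5% against 48.9%. These 3 were compared with dTAG13 2, with quasi-binomial adjusted p-values of 0.763, 0.629 and 0.486.

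Other positions had higher levels after dTAG13. The largest difference was in Fbxl20 at chr11:97979893 (minus strand), with 27 of 226 (11.9%) and 26 of 197 (13.2%) A reads in untreated libraries and 32 of 32 in dTAG13 1, a change of 87.4 points (quasi-binomial adjusted p = 0.169). That dTAG13 value rests on 32 reads. Fbxl16 (chr17:26036772) had 41.4% and 61.4% against 92.0% in dTAG13 2, from 25 reads, and Fbxo11 (chr17:88298807) had 18.7% and 26.7% against 51.2%, from 43 reads. Neither was called (adjusted p = 0.666 and 0.626). The sites at low untreated levels in Fbxl19, Fbxo6, Fbxo42 and Fbxw5 lay at 10.3% to 20.9% in untreated and 17.4% to 27.6% in dTAG13 libraries. At these sites a fall to under 10% would have left no dTAG13 value.

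**Figure D5:**
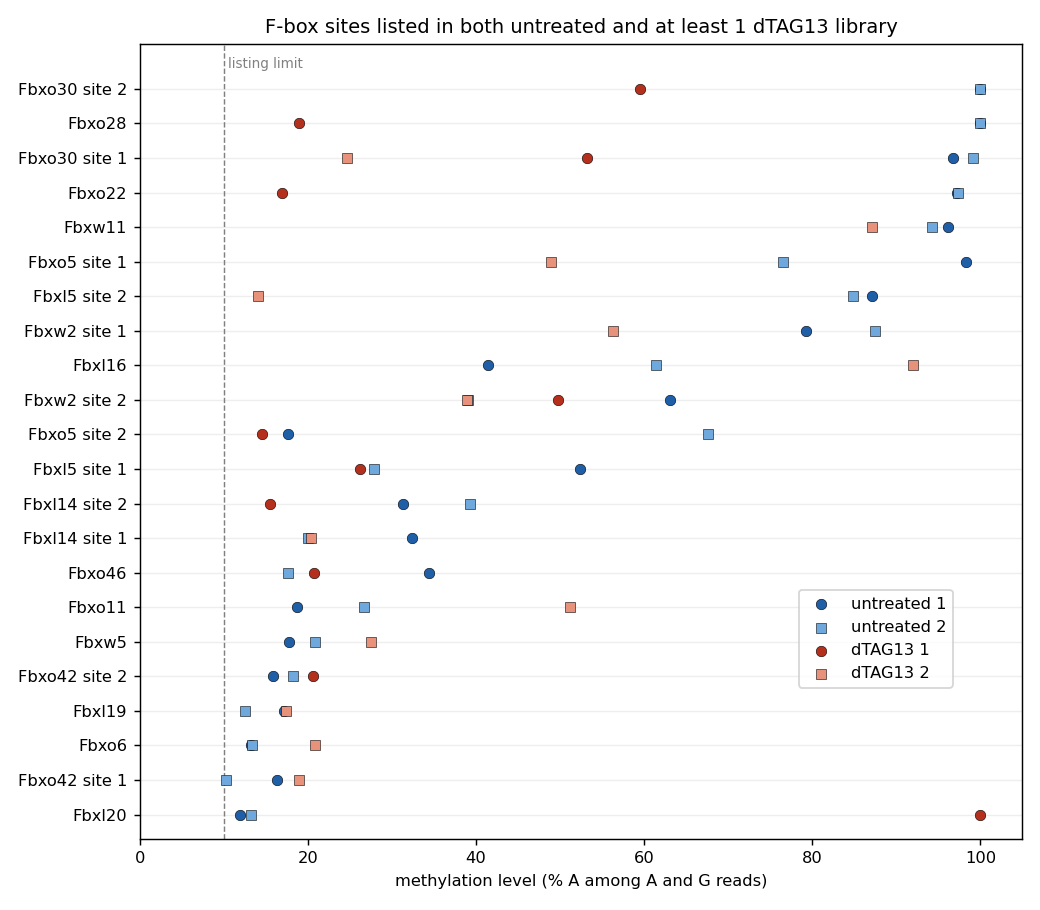
Methylation level (x axis, % A among A and G reads) of the 22 F-box sites listed in both untreated and at least 1 dTAG13 library; each point is a library, sites of one gene are numbered by position, and the dashed line marks the listing limit of 10%. Sites near 100% in untreated libraries, such as those of Fbxo28, Fbxo22 and Fbxo30, lie lower after dTAG13 (16.9% to 59.5%), and Fbxl20 lies at 100%, above its untreated levels.

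Of the 10 positions at 90% or more in untreated organoids by mean level, 5 had no dTAG13 value. Fbxl17, a receptor that removes wrongly paired BTB proteins, had one at chr17:63794842 with 50 of 50 and 177 of 179 A reads. Fbxw11 had one at chr11:32695004 with 154 of 155 and 93 of 94, and Fbxw17 had one at chr13:50587695 with 59 of 59 and 75 of 78. The reads were thus nearly all A in both libraries at these 3 positions. Fbxo5 had one at chr10:5749385 with 248 of 253 and 144 of 166 A reads, and Fbxl7 had one at chr15:26540730 with 15 of 16 and 156 of 156. The Fbxl7 level in untreated 1 rests on 16 reads. In the dTAG13 libraries the 35 shared positions often had unlike levels: in Fbxo45 (chr16:32051833) all 43 reads were A in dTAG13 1 and 23 of 201 (11.4%) in dTAG13 2.

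The rest of the SCF machinery was examined with 2 lists. F-box genes with other names (Btrc, Skp2, Ccnf, Kdm2a, Kdm2b and Fbh1) were all listed, with 260 and 220 sites in untreated and 142 and 155 in dTAG13 libraries, a ratio of 0.619. None of the 6 passed edgeR's adjusted p of 0.05 for site density, 0 lower and 0 higher, against the background of 1.09%. The histone demethylase genes Kdm2a and Kdm2b were lower at an unadjusted p under 0.05, where the background was 17.6%. Kdm2b had 27 and 35 sites against 5 and 16, a log2 density change of -1.45 ± 0.47 (SE; edgeR adjusted p = 0.0849), and Kdm2a had 66 and 54 against 28 and 28, a change of -0.84 ± 0.35 (edgeR adjusted p = 0.178). The site numbers of the groups were apart in both genes, for which no share over all genes was computed. Btrc, the paralog of Fbxw11, had 27 and 19 sites against 6 and 14, a density change of -0.66 ± 0.52 (edgeR adjusted p = 0.508). Skp2, the receptor for the cell cycle inhibitor p27, had 41 and 35 against 38 and 26, which overlapped. Of 27 partner symbols (SKP1, cullin, RING, NEDD8 pathway, exchange factors and COP9 signalosome), 26 were listed, the other being Skp1a, an older name of Skp1. They had 794 and 797 sites in all against 679 and 724, a ratio of 0.882. None was called for density. At an unadjusted p under 0.05 in edgeR's test there were 3, all higher: Ube2m at 0.91, Ube2d3 at 0.83 and Cops5 at 0.96. The background was 17.6% in either direction, with 313 of 11819 genes higher. Over the 26 partners the median log2 change was 0.00, with 13 negative. Their coverage was negative in 19 of 26 with a median of -0.39, none called by limma and 12 at an unadjusted p under 0.05, against the 16.3% of all genes. Cul1, the scaffold, had 57 and 61 sites against 67 and 57, and Skp1, the adaptor, had 13 and 12 against 6 and 20 at coverages of 1867 and 1905 against 1046 and 1474. For both genes the site numbers of the groups overlapped.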

How the data were processed

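The authors deposited 1 table of called sites per library, not pooled, with counts of A and G reads and of A reads, the level and the conversion rate as fractions, a coverage signal per gene, and p-values (adjusted values reach 0.00401). The submitters' processing notes name mm10; the aligner and caller are not given in the sources used here. Members and gene lists were chosen with earlier results of these data known. The genes named are those with the most listed sites (10), the highest and lowest site density (5 each), the largest falls and rises in density (5 each), genes at an unadjusted p under 0.05, genes of known substrate, and sites of 3 or more libraries, except 1 gene that is not reported here by name. Others were chosen after their values were seen.

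Site numbers were tested with edgeR 4.0.16 for genes listed in all 4 libraries with at least 10 sites in total. Coverage and the unconverted share (log2 odds) were tested with limma 3.58.1, and levels with a quasi-binomial model (R 4.3.3). Single values were compared with exact permutation tests. Wilson intervals and Spearman correlations were computed with SciPy 1.17.1. The scripts were tested on simulated data. DESeq2 1.42.0, other offsets, filters and read minimums, a replicate block and leaving out each library were alternatives. Same-numbered libraries did not deviate together (correlations of 0.0023, 0.0083 and 0.0022). The median F-box site had 85, 89, 77 and 108 reads in untreated 1, untreated 2, dTAG13 1 and dTAG13 2.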

Additional observations from a re-analysis of the deposited data

How the results depend on the processing

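The ratio of listed F-box sites stayed within 1 SD of 0.778 under 14 alternatives. F-box genes called for site density numbered 0, 1 with the total-site offset, and 0 to 1 with a library left out. F-box sites called for level numbered 0, and 2 with Fisher's exact test on pooled reads, which takes reads as independent. F-box genes called for level numbered 1, 0 with limma on log2 odds, 0 with the replicate block and 0 with any library left out. With the replicate block, whose numbers do not pair the samples, the Fbxo30 adjusted p was 0.169, and no F-box gene was called for density, coverage or unconverted share. Recovery after dTAG13 was 0.452 of that between untreated libraries with at least 100 reads, 0.368 at levels of at least 50% and, chosen after seeing the data, 0.869 within 50 nt. With a library left out, the log2 density change ranged from -0.69 to 1.48 for Fbxl15 and from -0.17 to 1.00 for Fbxw7 (0.0 with no offset), and the Fbxw2 level change from -18.7 to 5.24 points; the causes were not tested.

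Over all genes, density calls numbered 129 with the coverage offset, 0 with no offset, 54 with the total-site offset, 0 with DESeq2 and 0 to 137 with a library left out. Site level calls numbered 53, 531 with Fisher's test, 0 with the replicate block and 0 with any library left out; gene level calls 46, 0 with the block and 0 to 5 with a library left out; coverage calls 0, 20 uncentred, 8 with the block and 0 to 134 with a library left out. The 2 libraries per group and the single-library listing of most positions limit every comparison.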
